A study of Mus musculus with 35 samples.

Results

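The AP-1 transcription factor genes were followed through histone mark peaks in mouse bone marrow cells: Fos, Fosb, Fosl1, Fosl2, Jun, Junb, Jund, Atf3, Batf and Batf3. The members were taken by name, 10 of 21887 protein-coding genes on chromosomes 1 to 19, X and Y, and all 10 were found in the annotation. AP-1 is a transcription factor made of pairs of basic leucine zipper (bZIP) proteins, in which FOS proteins need a JUN partner to bind DNA and JUN proteins can also pair with each other. ATF3 and the BATF proteins join the same pairs through their leucine zippers and change which sites are bound. Many of these genes are immediate early genes, which means that growth factor and stress signals running through MAP kinases switch them on within minutes, and in myeloid cells the family is known for its part in monocyte differentiation and inflammatory gene expression.

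Chromatin immunoprecipitation with sequencing (ChIP-seq) mapped H3K4me1, a mark of enhancers, H3K4me3, a mark of promoters, and H3K27ac, a mark of active promoters and enhancers. The cells came from femurs and tibias of C57BL/6 mice. Lineage-negative hematopoietic stem and progenitor cells (HSPC), enriched by removing lineage-positive cells, came from wild-type mice (WT), from mice labelled Npm1c, from mice labelled Flt3-ITD and from mice labelled DM, and neutrophils came from WT mice through an isolation kit. Npm1c is the cytoplasmic mutant form of nucleophosmin and Flt3-ITD the internal tandem duplication of the FLT3 receptor tyrosine kinase, both found in acute myeloid leukaemia. DM was read as the double mutant carrying both lesions, which the labels do not spell out. The labels give neither the alleles or promoters that drive the mutations, nor the age of the mice, nor whether cells of several mice were pooled. Each of the 5 groups had 2 libraries per mark, called biological replicates by the submitters, so 30 libraries with peaks were used. The other 5 of the 35 samples were inputs without a peak list and were not used here.

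The data were lists of peak positions without scores or read counts. The depth of each library was therefore unknown, and the number and width of its peaks could not be told apart from its depth. For each gene, the length covered by peaks was summed from 10 kb before to 10 kb after each gene (5 kb for H3K4me3), and groups were compared on log2(bp + 500) with limma, adjusting over all genes by Benjamini-Hochberg; a gene was called at an adjusted p below 0.05. A log2 change on this scale understates the change of a gene with little coverage. H3K4me1 and H3K4me3 peaks were all 1000 bp wide, so coverage by these marks moved in steps of 1 kb, whereas H3K27ac peaks varied in width. In bulk cells, fewer cells that carry a mark and less of the mark in each cell cannot be told apart.

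H3K27ac lists covered 15.2 and 15.3 Mb in WT, 23.4 and 23.9 Mb in Npm1c, 16.6 and 18.4 Mb in Flt3-ITD, 20.3 and 13.5 Mb in DM and 16.0 and 16.6 Mb in neutrophils. The Npm1c lists were the longest, and the median gene was 0.36 higher in Npm1c than in WT on the log2 scale. In the other comparisons with WT the median gene stood at 0.12 for Flt3-ITD, 0.02 for DM and -0.12 for neutrophils. The labelled cell types were checked against marker genes. The summed H3K27ac of 15 neutrophil markers was 3.67 to 8.12 kb in the 8 HSPC libraries and 46.1 and 49.4 kb in neutrophils, with S100a8, S100a9, Camp and Ltf at 0 in HSPC and Ly6g at 0 in every library. The 14 HSPC markers summed to 22.9 to 85.9 kb in HSPC and to 13.3 and 14.2 kb in neutrophils, where Kit, Cd34, Gata2, Meis1 and Flt3 had none. Markers of other lineages differed between the HSPC groups. The 10 erythroid markers summed to 16.4 to 42.4 kb in the WT, Npm1c and Flt3-ITD libraries but to 4.76 and 3.11 kb in DM, and 9 monocyte and macrophage markers summed to 5.51 and 4.72 kb in WT, 7.57 and 12.3 kb in Npm1c, 13.8 and 13.1 kb in Flt3-ITD and 23.3 and 12.8 kb in DM, with Adgre1 at 0 in every HSPC library. The monocyte and macrophage sum was thus higher than in WT in all 6 mutant libraries, as were Fos, Fosb and Atf3. This was not particular to them, as Fosl2, Jun and Junb were higher in all 6 as well. So were the summed HSPC markers, B-lymphoid markers, T and NK cell markers, and mast cell, basophil and eosinophil markers. The part of list length and of these markers in the results on the AP-1 genes was not tested beyond the alternatives named beside them.

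Promoter sequences came from RefSeq (GRCm38.p6, the assembly of mm10, which the peak files use). They are shown for 3 genes with more H3K27ac at their start in mutant HSPC (Fos, Fosb and Atf3) and for Jun as their partner. Jun also had more within 1 kb of its start, with 1668 and 1709 bp in WT and 1792 to 2001 bp in the mutant libraries. The last is Batf3, whose start carried H3K4me3 but no H3K27ac. Each is the 250 bases before the annotated start, 5′ to 3′ on the gene's strand: Fos at chr12:85473640-85473889 (+), Fosb at chr7:19310046-19310295 (-), Jun at chr4:95052223-95052472 (-), Atf3 at chr1:191183334-191183583 (-) and Batf3 at chr1:191098164-191098413 (+). Capitals mark matches to TGACG or its reverse complement CGTCA, the core of the cAMP response element, and to TATAAA on the gene's strand.
Fos: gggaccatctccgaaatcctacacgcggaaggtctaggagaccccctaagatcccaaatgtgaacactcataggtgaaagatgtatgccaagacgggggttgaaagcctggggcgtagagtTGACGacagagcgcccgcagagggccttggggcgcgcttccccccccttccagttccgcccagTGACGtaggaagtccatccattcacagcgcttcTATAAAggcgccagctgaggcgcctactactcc
Fosb: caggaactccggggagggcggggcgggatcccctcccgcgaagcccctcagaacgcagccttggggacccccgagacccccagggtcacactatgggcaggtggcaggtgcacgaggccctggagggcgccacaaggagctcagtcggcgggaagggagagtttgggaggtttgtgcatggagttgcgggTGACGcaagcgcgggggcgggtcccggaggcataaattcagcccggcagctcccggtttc
Jun: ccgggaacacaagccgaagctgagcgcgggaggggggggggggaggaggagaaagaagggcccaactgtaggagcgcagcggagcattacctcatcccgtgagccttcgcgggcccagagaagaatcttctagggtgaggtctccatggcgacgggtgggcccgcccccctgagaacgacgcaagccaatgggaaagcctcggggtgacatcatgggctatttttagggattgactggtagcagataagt
Atf3: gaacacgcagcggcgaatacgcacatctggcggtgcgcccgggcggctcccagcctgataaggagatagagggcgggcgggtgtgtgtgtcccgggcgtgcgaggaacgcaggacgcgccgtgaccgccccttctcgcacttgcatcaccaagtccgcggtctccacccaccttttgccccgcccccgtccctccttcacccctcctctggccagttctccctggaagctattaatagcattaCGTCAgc
Batf3: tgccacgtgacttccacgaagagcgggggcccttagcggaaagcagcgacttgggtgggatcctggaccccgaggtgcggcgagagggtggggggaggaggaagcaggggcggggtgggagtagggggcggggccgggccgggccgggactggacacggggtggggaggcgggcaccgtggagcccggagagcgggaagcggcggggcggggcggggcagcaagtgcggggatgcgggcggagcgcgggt

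Of the 10 members, 9 had a promoter in this table; Fosl1 had none. TGACG occurred on either strand in 5 of the 9 (Fos, Fosb, Junb, Atf3 and Batf) and in 20.2% of 21263 promoters of the same length. Fos held it at -129 to -125 and at -66 to -62, counting back from -1 at the base before the start, and Fosb held it at -60 to -56. Fos was the member with TATAAA, at -33 to -28, a motif in 7.67% of all promoters. The full palindrome TGACGTCA (1.92% of promoters, each of which also holds TGACG), the AP-1 site TGANTCA (6.13%) and the CArG box of serum response factor (1.39%) were found in none of the 9 windows, which says only that these letters are not there. The Batf3 window was the richest in CpG, with 27 CpG and 76.0% GC, and the Jund window the poorest, with 3 CpG and 47.6% GC, against medians of 10 CpG and 55.6% GC over all promoters.

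Merging the peaks of the 10 libraries gave 35 H3K27ac, 84 H3K4me1 and 29 H3K4me3 regions in the members' windows. Distances of regions are from the RefSeq start in the direction of the gene, and lengths in bp count whole peaks, also where a peak runs past the window. H3K4me3 had the largest share of constant regions: 22 of its 29 were present in all 10 libraries, against 13 of 35 for H3K27ac and 29 of 84 for H3K4me1. Its windows reached 5 kb from the gene against 10 kb for the other marks, and H3K27ac peaks alone varied in width. The shares are therefore not compared on like terms. H3K4me3 lay within 1 kb of the start in 10 of 10 libraries for Fos, Fosb, Fosl2, Jun, Junb, Atf3, Batf and Batf3, and in 9 for Jund. H3K27ac lay there in 10 of 10 libraries for Fos, Fosb, Fosl2, Jun, Junb and Jund, in 9 for Atf3 and Batf, and in 0 for Batf3. Counting any overlap, 8 of these 9 promoters thus carried both marks in most libraries and Batf3 carried H3K4me3 without H3K27ac. H3K4me1 also lay within 1 kb of the Batf3 start in 10 of 10 libraries. At Jund the H3K4me3 overlap was only 0 to 288 bp, against 1000 bp in every library at Fosl2, Atf3, Batf and Batf3. Counting a region as gained when both libraries of a group and neither WT library had a peak there, Npm1c, Flt3-ITD and DM each gained 2 H3K27ac regions and lost 0, and neutrophils gained 3 and lost 3. When a peak had to cover 50% of the region, the gains were 7, 4, 5 and 8 and the losses 0, 0, 0 and 1; at Fos, for example, the added regions were ones that WT cells held at a smaller width. Gains and losses were not counted over the rest of the genome, and the H3K27ac lists differed in length. The counts therefore do not show whether gains were more frequent at these genes than elsewhere. The plot of H3K27ac by gene and library gives the lengths behind the comparisons that follow.

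**Figure D1:**
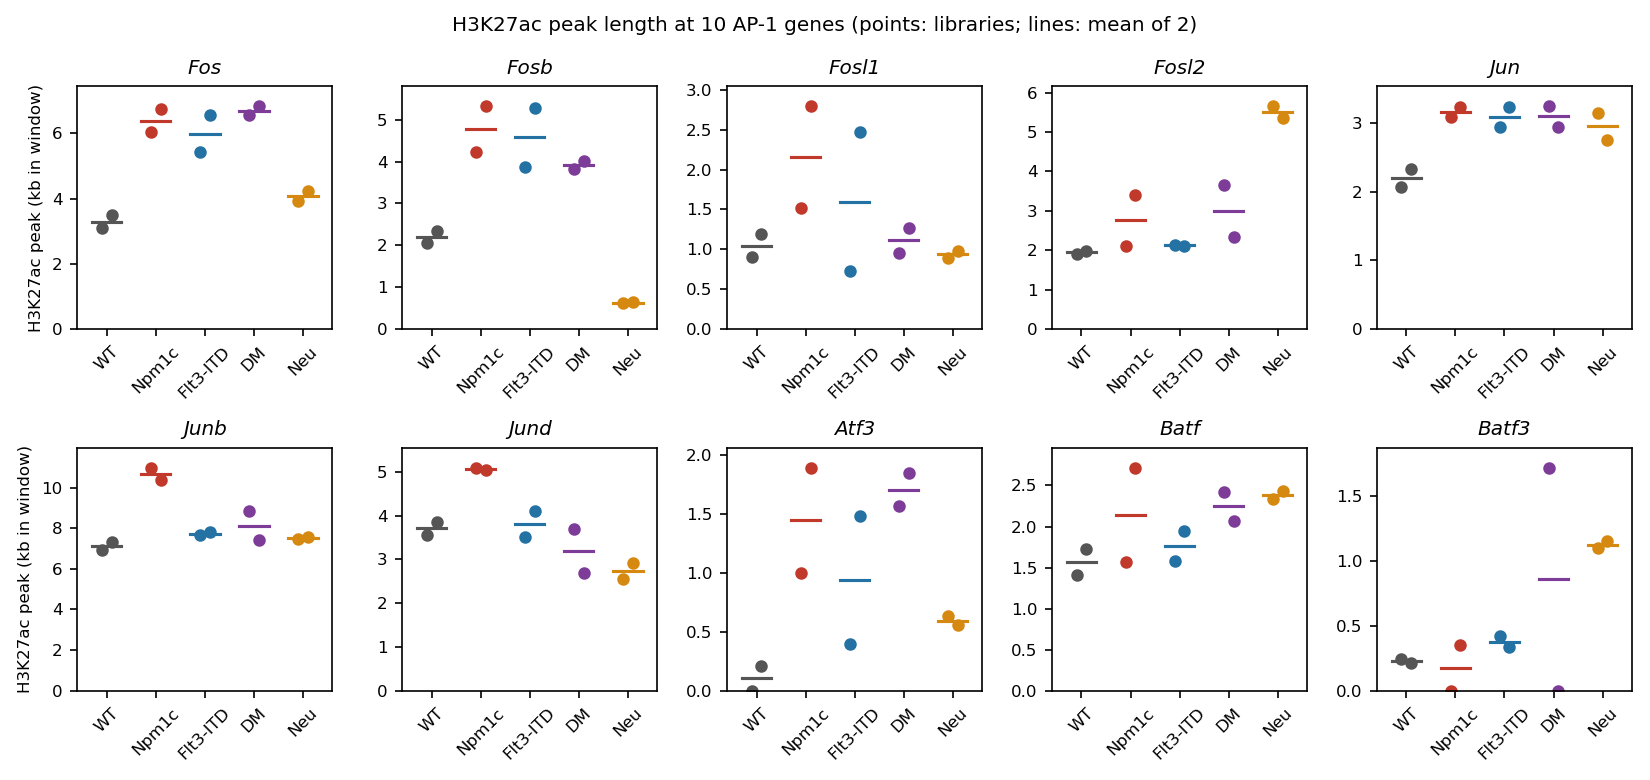
Length under H3K27ac peaks (kb from 10 kb before to 10 kb after the gene) for the 10 genes, with a point for each library and a line at the mean of the 2 libraries of a group; the vertical scale differs between genes and starts at 0. Fos, Fosb, Fosl2, Jun, Junb and Atf3 were higher in all 6 mutant HSPC libraries than in both WT libraries. Fosl2 was high in neutrophils, where Fosb was low.

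Fos (chr12:85473890-85477274) encodes the founding FOS protein, and no other protein-coding gene lies in its window. Its H3K27ac covered 3.09 and 3.50 kb in WT, 6.03 and 6.74 kb in Npm1c, 5.44 and 6.55 kb in Flt3-ITD, 6.57 and 6.84 kb in DM and 3.92 and 4.23 kb in neutrophils. All 6 mutant libraries lay above the WT and neutrophil libraries, and the neutrophil libraries lay above WT. The log2 change from WT was 0.86 ± 0.13 (SE) in Npm1c (limma, Benjamini-Hochberg adjusted p = 0.0167), 0.77 ± 0.13 in Flt3-ITD (adjusted p = 0.0778), 0.93 ± 0.13 in DM (adjusted p = 0.00608) and 0.27 ± 0.13 in neutrophils (adjusted p = 0.139), each over 2 libraries a group. Fos therefore passed the test in Npm1c and DM, and the Flt3-ITD value of similar size did not pass.

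The added acetylation at Fos lay mostly in regions that WT cells already carried; the exception was a peak of 278 bp from -6.70 to -6.42 kb in DM replicate 2. Around the start, from -2.29 to 1.32 kb, peaks covered 1647 and 1740 bp in WT and 2190 and 2343 bp in neutrophils. In the same region they covered 3278 and 3495 bp in Npm1c, 2723 and 3572 bp in Flt3-ITD and 3472 and 3519 bp in DM, up to nearly its whole length. A region downstream of the gene, from 11.33 to 14.03 kb after the start, covered 695 and 930 bp in WT, 767 and 785 bp in neutrophils, 1664 and 2553 bp in Npm1c, 1470 and 1509 bp in Flt3-ITD and 1504 and 1522 bp in DM. Here the mutant libraries again stood apart from both WT groups. A pair of upstream regions, from -5.99 to -5.16 kb and from -5.03 to -4.21 kb, was present in all 10 libraries. H3K4me3 at the Fos start was present in all 10 libraries as well, so the promoter mark was in place in every group.

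Fosb (chr7:19302696-19310118) encodes a FOS protein of the same immediate early group, and its window also reaches Rtn2. Its H3K27ac covered 2.05 and 2.33 kb in WT, 4.22 and 5.32 kb in Npm1c, 3.87 and 5.28 kb in Flt3-ITD, 3.82 and 4.02 kb in DM, and 0.635 and 0.637 kb in neutrophils. The 3 mutant groups were high, the neutrophils low, and neither overlapped WT. The log2 change from WT was 0.96 ± 0.16 in Npm1c (limma, adjusted p = 0.0185), 0.90 ± 0.16 in Flt3-ITD (adjusted p = 0.0862) and 0.72 ± 0.16 in DM (adjusted p = 0.0269). In neutrophils it fell by 1.24 on the log2 scale (SE 0.16, limma adjusted p = 0.0013), and this fall passed the test under all 12 alternatives run.

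At Fosb, 3 regions without a peak in WT were acetylated in most mutant libraries. Regions from -6.56 to -5.99 kb and from -7.14 to -6.71 kb upstream, and from 8.79 to 9.23 kb downstream of the start, had no H3K27ac in either WT or either neutrophil library and held it in 5, 4 and 5 of the 6 mutant libraries. At each of these places WT cells already carried H3K4me marks: H3K4me1 from -7.66 to -5.89 kb and H3K4me3 from -6.97 to -5.86 kb and from 8.40 to 9.56 kb were present in 10 of 10 libraries. An upstream region from -11.08 to -8.54 kb had 703 and 748 bp in WT, 1029 to 2303 bp in the mutant libraries and none in neutrophils. The Fosb start itself, from -0.95 to 2.05 kb, covered 1550 and 1817 bp in WT, 2419 to 2751 bp in the 6 mutant libraries and 635 and 637 bp in neutrophils. The H3K4me3 window of Fosb held 3 kb in each of the 10 libraries, neutrophils included. As these peaks have a fixed width, a change short of losing or gaining a whole peak would not show.

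**Figure D2:**
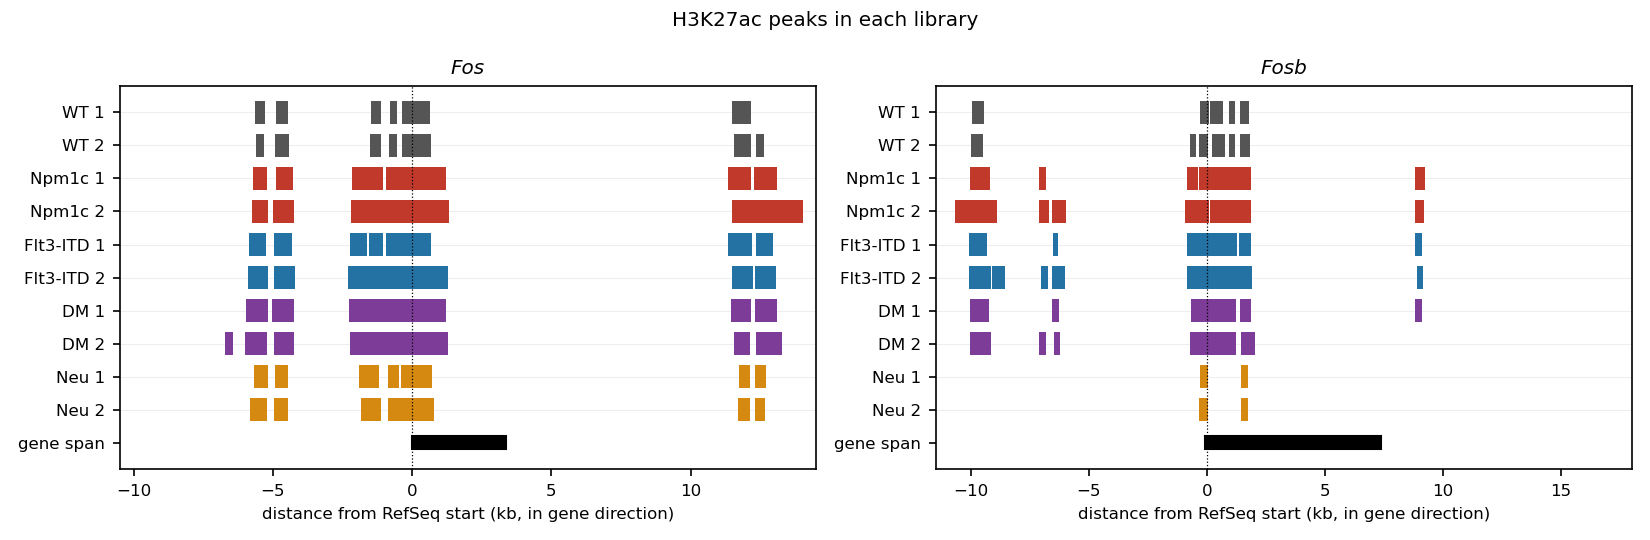
H3K27ac peaks (bars) in each library around Fos and Fosb, by distance in kb from the RefSeq start in the direction of the gene, with the gene span in black. Peaks at the Fos start spread to between 2723 and 3572 bp in the mutant HSPC libraries against 1647 and 1740 bp in WT; neutrophils kept 635 and 637 bp at the Fosb start.

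Fosl2 (chr5:32136472-32157840) encodes FRA-2, a FOS-related protein without the strong activation domain of FOS, and its window holds no other protein-coding gene. H3K27ac covered 1.92 and 1.99 kb in WT, 2.12 and 3.40 kb in Npm1c, 2.15 and 2.12 kb in Flt3-ITD, 3.65 and 2.34 kb in DM and 5.66 and 5.35 kb in neutrophils. Neutrophils were the high group, above all 8 HSPC libraries. The log2 change from WT was 1.29 ± 0.22 in neutrophils (limma, adjusted p = 0.00416) and passed under all 12 alternatives run. In Npm1c, Flt3-ITD and DM it was 0.38 ± 0.22, 0.10 ± 0.22 and 0.48 ± 0.22 (limma adjusted p from 0.211 to 0.881).

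H3K27ac and H3K4me3 both covered more of Fosl2 in neutrophils. The acetylated region at the start, from -1.49 to 3.47 kb, covered 1917 and 1994 bp in WT and 4600 and 4762 bp in neutrophils. An upstream region from -3.58 to -2.52 kb had no H3K27ac in WT and 1058 and 584 bp in neutrophils. H3K4me3 covered 2 kb in each of the 8 HSPC libraries and 3 kb in both neutrophil libraries, the added peak lying from 1.01 to 2.01 kb after the start. This gave a log2 change of 0.49 (limma adjusted p = 1.32e-11), where the libraries of both groups had no spread and the p reflects that; the call ended after centring on the median gene (adjusted p = 0.124). H3K4me1 covered 8 and 9 kb in WT and 10 kb in both neutrophil libraries, which did not pass, but regions from 17.46 to 18.76 kb inside the gene and from 21.51 to 22.59 kb just past its end held H3K4me1 in both neutrophil libraries and in no HSPC library.

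Fosl1 (chr19:5447698-5455938) encodes FRA-1. Its window reaches Ccdc85b, Fibp and Ctsw, and in the HSPC libraries most of its H3K27ac lay at the starts of Ccdc85b and Fibp. The window total was 0.904 and 1.19 kb in WT, 1.52 and 2.80 kb in Npm1c, 0.723 and 2.48 kb in Flt3-ITD, 0.952 and 1.27 kb in DM and 0.890 and 0.984 kb in neutrophils, and Fosl1 passed no test. Within the Fosl1 span, WT and DM had no H3K27ac. Neutrophils had 498 and 539 bp in one region of the span, where Npm1c replicate 2 had 323 bp, and a second region held 497 bp in Npm1c replicate 2 and 516 bp in Flt3-ITD replicate 2.

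Jun (chr4:95049036-95052222) encodes the best-known partner of FOS, and its window holds no other protein-coding gene. Its H3K27ac covered 2.07 and 2.33 kb in WT, 3.08 and 3.22 kb in Npm1c, 2.94 and 3.23 kb in Flt3-ITD, 3.24 and 2.94 kb in DM and 3.14 and 2.76 kb in neutrophils. All 8 other libraries lay above both WT libraries. The log2 change from WT was 0.44 ± 0.10 in Npm1c (limma, adjusted p = 0.0346), 0.41 ± 0.10 in Flt3-ITD (adjusted p = 0.151), 0.41 ± 0.10 in DM (adjusted p = 0.0421) and 0.35 ± 0.10 in neutrophils (adjusted p = 0.034). These were small changes in 1 region around the start, from -1.21 to 2.19 kb. With the replicate number as a block Jun was called in none of Npm1c, DM and neutrophils (limma adjusted p = 0.0587, 0.0746 and 0.0589). In neutrophils no call for Jun held when either library of either group was left out, and with lists thinned at random to equal length, a single draw, its value turned to -0.9998 (adjusted p = 0.591).

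Junb (chr8:84976909-84978748) encodes a JUN protein known to restrain proliferation of myeloid progenitors, and its window also holds Rnaseh2a and Prdx2. It had the longest H3K27ac of the 10 windows in every library, 6.91 and 7.33 kb in WT, 10.99 and 10.40 kb in Npm1c, 7.65 and 7.83 kb in Flt3-ITD, 8.84 and 7.40 kb in DM and 7.48 and 7.57 kb in neutrophils. Npm1c was the high group, and the others lay close to WT. The log2 change from WT passed in Npm1c (0.56 ± 0.14, limma adjusted p = 0.0401) and not in Flt3-ITD (0.11), DM (0.17) or neutrophils (0.08; adjusted p from 0.494 to 0.740 for the 3). Part of the Npm1c value came from the start of Prdx2. A region there covered 1205 and 1464 bp in WT, 2449 and 2196 bp in Npm1c and none in neutrophils. Another part came from the region around the Junb start, from -2.77 to 4.25 kb, which also reaches Prdx2. It covered 4536 and 4825 bp in WT and 6724 and 6372 bp in Npm1c. Over the Junb span alone the Npm1c change was 0.04 (limma adjusted p = 0.63). That span of 1840 bp lies inside the region around the start and leaves out widening past its ends. In neutrophils a region from -4.17 to -3.17 kb upstream of Junb held 645 and 946 bp, against none in WT.

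Jund (chr8:70697739-70700616) encodes the JUN protein that is expressed the most evenly across cells. Its window also reaches Iqcn. H3K27ac covered 3.57 and 3.86 kb in WT, 5.10 and 5.05 kb in Npm1c, 3.51 and 4.10 kb in Flt3-ITD, 3.69 and 2.69 kb in DM and 2.56 and 2.93 kb in neutrophils. Npm1c was high and neutrophils low, and neither overlapped WT, but no comparison with WT passed (log2 change 0.40 ± 0.15 in Npm1c, limma adjusted p = 0.0859; -0.38 ± 0.15 in neutrophils, adjusted p = 0.0834). DM was below Npm1c by 0.61 on the log2 scale (-0.61 ± 0.15, limma adjusted p = 0.019). In that comparison 30.9% of all genes were called lower and the median gene stood at -0.31; after centring on the median gene the Jund value was -0.25 (adjusted p = 0.0725), and without Npm1c replicate 1, Npm1c replicate 2 or DM replicate 2 Jund was not called.

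Atf3 (chr1:191170296-191183333) encodes a stress-induced bZIP protein that pairs with JUN proteins, and its window reaches Fam71a. It had the least H3K27ac of the members in WT, 0 and 0.208 kb, and 0.998 and 1.89 kb in Npm1c, 0.394 and 1.48 kb in Flt3-ITD, 1.57 and 1.84 kb in DM and 0.632 and 0.554 kb in neutrophils. Every library of the other groups lay above both WT libraries. The log2 change from WT was 1.67 ± 0.39 in Npm1c (limma, adjusted p = 0.0322) and 1.89 ± 0.39 in DM (adjusted p = 0.0216), and 1.16 ± 0.39 in Flt3-ITD and 0.88 ± 0.39 in neutrophils, which did not pass (adjusted p = 0.22 and 0.117). With coverage this low in WT the fitted value depends on the 500 bp added before the log, and ran from 0.70 to 3.07 in Npm1c and from 0.82 to 3.36 in DM over the alternatives. All of this H3K27ac lay in 1 region, from -1.08 to 1.00 kb around the start, where H3K4me3 was present in 10 of 10 libraries.

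Batf (chr12:85686720-85709087) and Batf3 (chr1:191098414-191108943) encode short bZIP proteins that pair with JUN proteins and are known for their roles in lymphocytes and dendritic cells; no other protein-coding gene lies in either window. Batf H3K27ac covered 1.41 and 1.72 kb in WT, 1.57 and 2.72 kb in Npm1c, 1.58 and 1.95 kb in Flt3-ITD, 2.42 and 2.07 kb in DM and 2.33 and 2.43 kb in neutrophils. DM and neutrophils lay above WT without passing (log2 change 0.41 ± 0.21 and 0.48 ± 0.21, limma adjusted p = 0.258 and 0.107). Most of it lay in a region 17.64 to 19.56 kb after the start, inside the gene and present in all 10 libraries. At the Batf start, from -0.36 to 0.64 kb, H3K27ac was 215 and 0 bp in WT, 753 and 876 bp in DM and 607 and 642 bp in neutrophils.

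H3K4me1 at Batf covered 5 kb in both WT libraries, 3 to 6 kb in the mutant libraries and 9 kb in both neutrophil libraries. Neutrophils were thus above every HSPC library, with regions inside the gene from 4.52 to 5.65 kb and from 19.11 to 20.17 kb that no HSPC library held, although the window total did not pass the test. Batf3 had little H3K27ac, with 0.247 and 0.215 kb in WT, 0 and 0.352 kb in Npm1c, 0.424 and 0.333 kb in Flt3-ITD, 1.72 and 0 kb in DM and 1.10 and 1.15 kb in neutrophils. No comparison passed, and DM replicate 1 alone made the DM mean. All of it lay past the end of the gene, chiefly from 12.54 to 13.78 kb after the start, where H3K4me3 was present in 10 of 10 libraries.

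**Figure D3:**
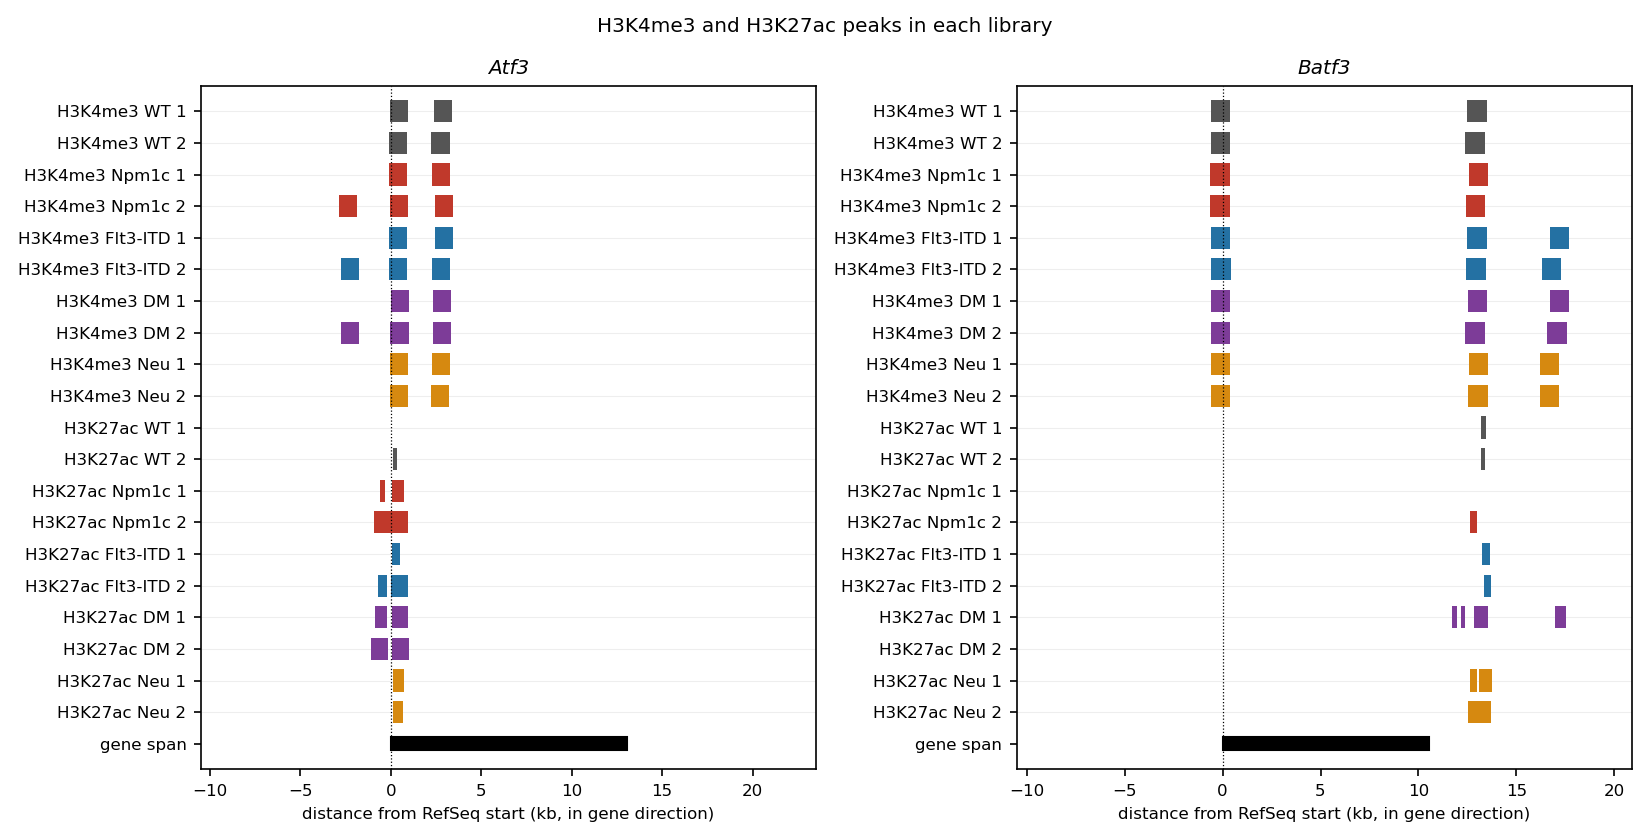
H3K4me3 and H3K27ac peaks (bars) in each library around Atf3 and Batf3, by distance in kb from the RefSeq start in the direction of the gene, with the gene span in black. The start of Atf3 held H3K4me3 in 10 of 10 libraries and H3K27ac in 9, while the start of Batf3 held H3K4me3 in 10 and H3K27ac in 0.

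**Figure D4:**
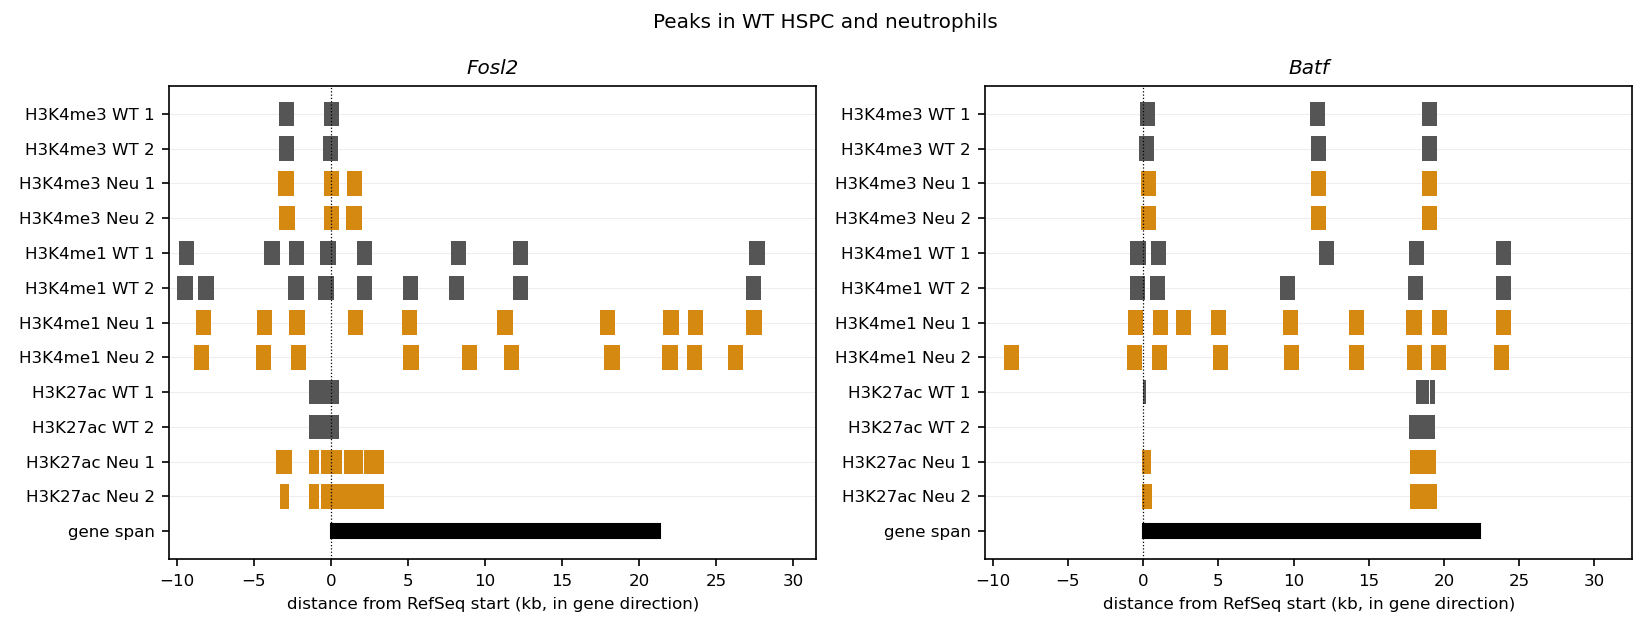
H3K4me3, H3K4me1 and H3K27ac peaks (bars) in the WT HSPC and neutrophil libraries around Fosl2 and Batf. Positions are distances in kb from the RefSeq start in the direction of the gene, with the gene span in black. Neutrophils held H3K27ac over 4600 and 4762 bp at the Fosl2 start against 1917 and 1994 bp in WT. They had H3K4me1 inside both genes at places where neither WT library had it.

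Counted over the family, H3K27ac in Npm1c against WT rose at 5 of the 10 members (Fos, Fosb, Jun, Junb and Atf3) and fell at none, where 17.7% of the 13637 genes tested were called higher. The median member changed by 0.50 on the log2 scale and the median gene by 0.36. Of the 10 members, 8 had both Npm1c libraries above both WT libraries, as did 78.3% of all genes tested. After centring each library on its median gene 104 of the 13637 genes were called higher. None of the 5 members was then called, with Fos at 0.46, Fosb at 0.57, Jun at 0.04, Junb at 0.16 and Atf3 at 1.27 (limma adjusted p from 0.145 to 0.865). The count was 0 when either WT library or Npm1c replicate 2 was left out, and 3 without Npm1c replicate 1; with lists thinned at random to equal length it was 0.

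Flt3-ITD alone gave no called member, and only 0.0807% of genes were called higher and 0.022% lower. At an unadjusted p below 0.05, 4 of the 10 members and 15.4% of all genes differed. Fos and Fosb had the smallest adjusted p, 0.0778 and 0.0862 (limma). In 7 members both Flt3-ITD libraries lay above both WT libraries, against 45.7% of all genes tested. The median member changed by 0.29 and the median gene by 0.12.

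In DM, H3K27ac rose at 4 members (Fos, Fosb, Jun and Atf3) and fell at none, where 6.94% of genes were called higher and 6.04% lower. The median member changed by 0.45 and the median gene by 0.02, and 7 members had both DM libraries above both WT libraries, against 29.9% of genes tested. After centring on the median gene 1552 of 13637 genes were called higher and 1523 lower. All 4 members remained called, at 0.89 for Fos, 0.68 for Fosb, 0.37 for Jun and 1.85 for Atf3 (limma adjusted p from 0.00258 to 0.032). Single libraries weighed on the count: it was 0 without WT replicate 1, 1 without WT replicate 2, 1 without DM replicate 1 and 3 without DM replicate 2. Fos was called in the last 3 of these and Jun in the last, while Fosb and Atf3 were called in none of the 4. The last count thus includes a member that was not called with all libraries. With lists thinned at random to equal length Fos was the 1 member called. Over the gene span alone Fos was not called (0.58, limma adjusted p = 0.0727), and Fosb was called at 0.37.

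The mutant groups share the WT libraries, so their changes are not independent of each other. Tested directly, DM differed from Flt3-ITD at 0 of 10 members at an adjusted p below 0.05 in limma, where 2.49% of genes were called, and at 0 at an unadjusted p below 0.05, where 16.7% of genes differed. DM differed from Npm1c in H3K27ac at Jund, described above. After centring on the median gene Jund was not called, and Fos (0.43, limma adjusted p = 0.0422) and Jun (0.33, adjusted p = 0.0424) were. That fit called 1664 of 13637 genes higher and 1964 lower. Without centring, for Fos the DM value was 0.07 ± 0.13 above Npm1c and 0.15 ± 0.13 above Flt3-ITD on the log2 scale, and for Fosb it was -0.25 ± 0.16 and -0.19 ± 0.16, none of which passed (limma adjusted p from 0.252 to 0.706).

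In neutrophils against WT HSPC, H3K27ac rose at Fosl2 and Jun, where 13.2% of genes were called higher, and fell at Fosb, where 23.2% were called lower. The median member stood at 0.31 and the median gene at -0.12. Members with both neutrophil libraries above both WT libraries numbered 7, against 27.7% of genes, and 2 had both below, against 52.0%. After centring on the median gene 2788 of 13637 genes were called higher and 2849 lower. In that fit 6 members were called: Fos (0.41), Atf3 (1.01) and Batf (0.62) joined Fosl2, Jun and Fosb. Fosb and Fosl2 were called without each of the 4 libraries in turn and Jun in none of these 4 fits.

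**Figure D5:**
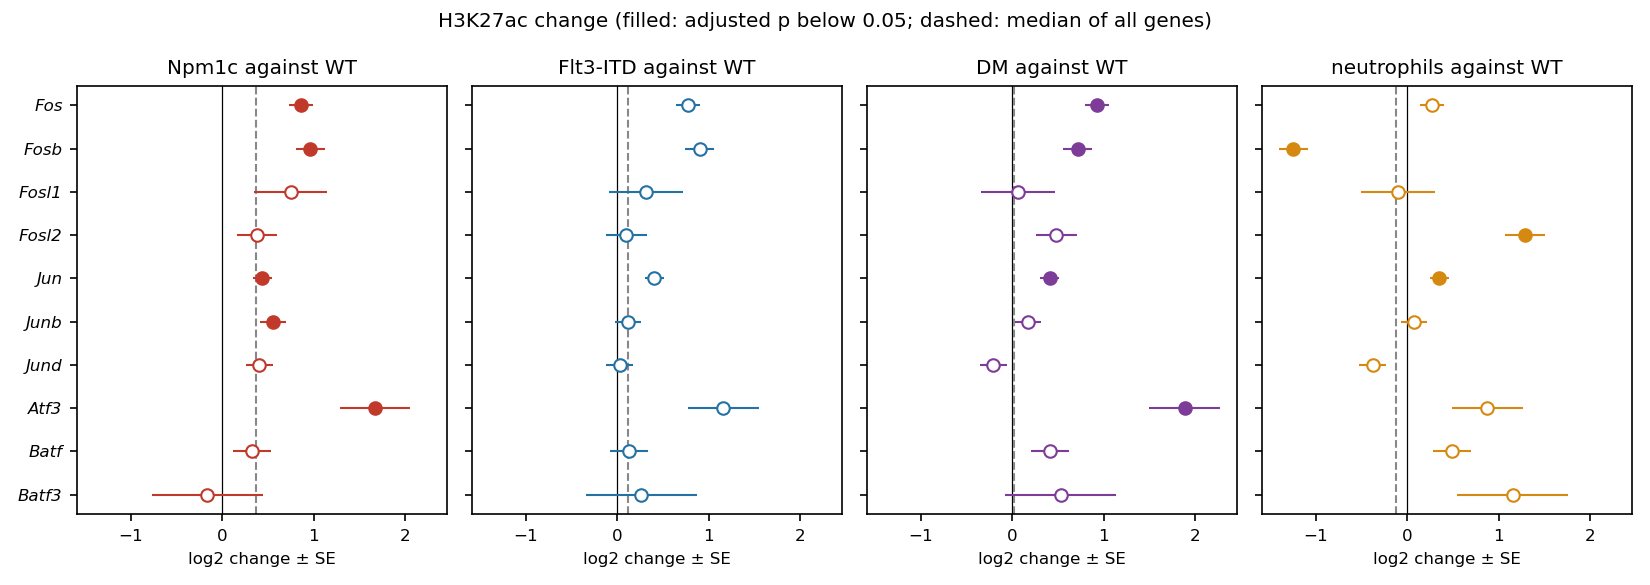
Log2 change in H3K27ac length from WT HSPC (points, with bars of 1 SE from limma, 2 libraries a group) for the 10 genes in 4 comparisons; filled points had an adjusted p below 0.05, and the dashed line is the median of all genes tested. Fos, Fosb and Atf3 lay to the right in all 3 mutant groups, and neutrophils had Fosb at -1.24 and Fosl2 at 1.29.

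The effects of the 2 mutations were also tested for adding up on the log2 scale. The interaction was negative at Fos (-0.71 ± 0.18, limma adjusted p = 0.0402) and Fosb (-1.15 ± 0.22, adjusted p = 0.0212), so that DM stood below the sum of the single mutants, where 17.5% of genes had a called negative interaction and the median gene stood at -0.46. After centring on the median gene 370 of 13637 genes had a called negative term. Fos then stood at -0.20 and Fosb at -0.65, and neither was called. Neither was called when either WT library or Flt3-ITD replicate 2 was left out, and Fos was also not called without either Npm1c library or DM replicate 2.

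The other marks gave few calls at these genes. H3K4me1 differed from WT at none of the 10 in any group by limma, while 1, 1, 3 and 4 members had an unadjusted p below 0.05 in Npm1c, Flt3-ITD, DM and neutrophils. Of all 17381 genes, 8.52%, 12.9%, 33.4% and 37.0% had such a p, and 0.334%, 1.7%, 18.1% and 23.3% were called in either direction. After centring on the median gene Atf3 and Batf3 were called in DM, where 1028 genes were called higher and 1441 lower. Batf joined them in neutrophils, where 1389 genes were called higher and 2977 lower. Batf3 was called in DM against Npm1c, with 3.48 and 4.39 kb in Npm1c and 7.33 and 8.39 kb in DM (log2 change 0.92, limma adjusted p = 0.0217), where 3.1% of genes were called higher; without Npm1c replicate 1 or either DM library it was not called. At Fosl2 the values went the other way, with 8 and 9 kb in WT, 3 and 7 kb in Npm1c, 9 and 6 kb in Flt3-ITD and 4 kb in both DM libraries, and did not pass. Neither DM library had H3K4me1 at the Fosl2 start, from -0.98 to 0.30 kb, or inside the gene from 6.43 to 9.48 kb and from 10.81 to 13.35 kb, where both WT libraries held it. The start region was also without H3K4me1 in both Flt3-ITD libraries, both neutrophil libraries and Npm1c replicate 1.

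H3K4me3 against WT was called at Fosl2 in neutrophils, as described, where 6.72% of 16138 genes were called higher. In Npm1c, Flt3-ITD and DM none of the 10 was called by limma, and 1, 0 and 0 had an unadjusted p below 0.05. Over all genes 5.12%, 8.07% and 17.8% had such a p, and 1.37%, 2.73% and 8.17% were called. Coverage was the same in every library at Fosb and Batf (3 kb) and at Jun and Batf3 (2 kb). At Junb it was 3 kb in both libraries of WT, Flt3-ITD and DM, 2 and 1 kb in Npm1c and 2 kb in both neutrophil libraries, with the peak from -4.34 to -2.97 kb missing in Npm1c and neutrophils. Npm1c thus had the shortest H3K4me3 within 5 kb of Junb, a difference that did not pass, and the longest H3K27ac within 10 kb. These are windows of unlike size. The H3K27ac region at the Prdx2 start, from 7.84 to 10.28 kb, lay outside the H3K4me3 window.

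Genes linked to AP-1 were read from 4 lists. Of 20 other immediate early genes tested, 7 rose in H3K27ac in Npm1c, 0 in Flt3-ITD and 6 in DM, with none lower in any of the 3. In neutrophils 4 rose and 4 fell. Over all genes 17.7%, 0.0807%, 6.94% and 13.2% rose, and 23.2% fell in neutrophils. The medians of the 20 were 0.48, 0.22, 0.33 and -0.01 on the log2 scale. Klf2, a zinc finger factor induced by MAP kinase signalling, covered 0.756 ± 0.173 kb in WT, 2.47 ± 0.769 kb in Npm1c and 2.97 ± 0.558 kb in DM (SD, n = 2), with log2 changes of 1.22 and 1.46 (limma adjusted p = 0.0204 and 0.00771). Nr4a1, an orphan nuclear receptor and early response gene, covered 2.41 ± 0.221 kb in WT, 4.12 ± 0.568 kb in Npm1c and 5.52 ± 0.132 kb in DM, with log2 changes of 0.66 and 1.05 (adjusted p = 0.0308 and 0.00657). In neutrophils Myc, which drives cell growth, had no H3K27ac peak against 2.99 ± 0.0523 kb in WT.

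The route from MAP kinases to serum response factor, which switches FOS genes on, had 28 genes tested: 8 rose in Npm1c, 0 in Flt3-ITD and 5 in DM, where 1 fell, and 5 rose and 3 fell in neutrophils (medians 0.46, 0.26, 0.21 and 0.04). Over all genes 17.7%, 0.0807%, 6.94% and 13.2% rose, and 6.04% fell in DM and 23.2% in neutrophils. Dusp2, a phosphatase that switches MAP kinases off, rose from 1.45 ± 0.0615 kb in WT to 3.43 ± 0.483 kb in Npm1c and 3.65 ± 1.03 kb in DM (limma adjusted p = 0.0223 and 0.0148) and had no peak in neutrophils. Map3k1, a kinase upstream of JNK, rose from 2.39 ± 0.0976 to 8.81 ± 2.25 kb in DM (adjusted p = 0.00474). Of 17 AP-1 target genes, 3 rose in Npm1c, 0 in Flt3-ITD and 3 in DM, where 2 fell, and 11 rose and 3 fell in neutrophils, where the median was 1.07. The Npm1c share of these is near the 17.7% of all genes that rose. The 2 that fell in DM, Mt1 and Mt2, had identical values (0.827 ± 0.542 kb in DM, 2.39 ± 0.0417 kb in WT) and are not separate observations. Plaur, the urokinase receptor, covered 0.519 ± 0.141 kb in WT, 1.31 ± 0.607 kb in Npm1c, 2.25 ± 0.156 kb in DM and 4.27 ± 0.527 kb in neutrophils (adjusted p = 0.0497, 0.00947 and 0.000544). S100a8 and S100a9, also neutrophil markers, had no peak in WT and 5.64 ± 0.0311 and 5.88 ± 0.216 kb in neutrophils. The mutant medians of these 17 were 0.33, 0.00 and 0.00.

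The genes most like each member were named by the Pearson correlation of log2 H3K27ac length over the 10 libraries, leaving out genes within 1 Mb. The points share their libraries and list lengths, and the values are a description. Fos was most like Rwdd1 (r = 0.973) and Ece1 (0.961), Fosb like Mcm3 (0.995), Fosl2 like Cmklr1 (0.993) and Exoc1 (0.99), Jun like Plbd2 (0.974) and Fdps (0.948), and Atf3 like Wnt10b (0.954) and Frg1 (0.946). Among the members, Fos and Atf3 were the closest pair (r = 0.921), followed by Jun and Atf3 (0.851) and Fos and Jun (0.818), and Fosb and Fosl2 were the farthest apart (-0.668).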

How the data were processed

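Peak positions of 30 histone mark ChIP-seq libraries were read as deposited. Per the submitters' processing notes, the authors used Bowtie2 2.1.0, Picard, HOMER and MACS2 with mm10; the file names assign HOMER to H3K4me1 and H3K4me3 and MACS2 to H3K27ac. Their other versions and peak thresholds: not given in the sources used here. Values in the deposited files are other than a measurement scale: chromosome, start and end of peaks called per library, with no score, count or depth, so only the number of libraries limits the precision that can be stated. Wide or merged peaks reflect both signal and the caller.

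Gene spans came from RefSeq (GRCm38.p6). Base pairs under peaks were summed over each span with 10 kb on each side (5 kb for H3K4me3), and log2(bp + 500) was fitted over the 5 groups by limma's trended empirical Bayes fit (version 3.58.1, R 4.3.3) for genes covered in at least 2 of 10 libraries, with Benjamini-Hochberg adjustment over all genes per mark and comparison. No scaling between libraries was applied. There were 7 comparisons per mark: each mutant and neutrophils against WT, DM against Npm1c and against Flt3-ITD, and the Npm1c by Flt3-ITD interaction. All 10 members passed the filter for each mark. The code was checked on simulated data. Windows, regions and motifs were computed with NumPy 2.4.6 and pandas 2.3.3 under Python 3.11.15, and figures with matplotlib 3.10.9.

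All members are described; in the related lists up to 3 called genes with the largest change per list and comparison could be named, and not all are printed. The members and lists were chosen with earlier results of these data known. Alternatives were centring on the median gene, other added constants, no filter, the span alone, a replicate block, lists of equal length and leaving out each library. Replicate numbers are shared between groups, but deviations of same-numbered libraries did not correlate above 0.1 in every pair, so the numbers were not treated as pairs.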

Additional observations from a re-analysis of the deposited data

Results flagged for a closer look

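Fos and Fosb were flagged in H3K27ac because, before centring, the effects of the mutations did not add up on the log2 scale, by a test of the difference itself. The DM value was lower than the sum of the Npm1c and Flt3-ITD changes by a log2 term of -0.71 ± 0.18 (SE) for Fos (limma, Benjamini-Hochberg adjusted p = 0.0402) and of -1.15 ± 0.22 for Fosb (adjusted p = 0.0212). For Fos the changes from WT were 0.86 in Npm1c, 0.77 in Flt3-ITD and 0.93 in DM, and for Fosb 0.96, 0.90 and 0.72, so DM stood near each single mutant. Over all genes 17.5% had a called negative term and the median term was -0.46. The 2 called of 10 members were near that share, and the median member stood at -0.57. After centring on the median gene the terms were -0.20 for Fos and -0.65 for Fosb, and neither was called (adjusted p = 0.532 and 0.125). The part of the long Npm1c lists in these terms was not tested beyond that.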

How the results depend on the processing

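The files hold no depth, 2 libraries a group give few degrees of freedom, and lists of equal length, made by thinning at random (called equal lists here), rest on 1 draw. Of 2493 values under alternatives, 2360 kept their side of the threshold, 139 of them changing sign while never called, 90 lost a call, 41 gained one and 2 turned with a call under one of the settings: Jun in neutrophils against WT was -0.9998 with lists thinned at random, and Jun in DM against Npm1c was 0.33 after centring. The causes were not tested.

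Counts of members called for H3K27ac moved as follows. Npm1c (5) gave 0 after centring, 3 with no filter, 3 over the span alone, 0 with equal lists and 0 to 3 without single libraries. Flt3-ITD (0) gave 1 with 100 bp added. DM (4) gave 1 with no filter, 1 with equal lists and 0 to 3 without single libraries. Neutrophils (3) gave 6 after centring. DM against Npm1c (1) gave 2 after centring, 0 over the span alone, 0 with equal lists and 0 to 2 without single libraries. The interaction (2) gave 0 after centring, 1 with no filter, 1 over the span alone, 0 with equal lists and 0 to 5 without single libraries; it was 4 without Flt3-ITD replicate 1 and 5 without DM replicate 1.

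For H3K4me1, DM against WT (0) gave 2 after centring and 1 over the span alone, neutrophils (0) gave 3 after centring, and DM against Npm1c (1) gave 0 over the span alone, 0 with equal lists and 0 to 2 without single libraries. Every other H3K4me1 comparison gave 0 to 1 without single libraries. For H3K4me3, neutrophils (1) gave 0 after centring, 2 over the span alone and 0 with equal lists, and DM against Npm1c (0) gave 1 over the span alone. Npm1c, Flt3-ITD, both DM comparisons with single mutants and the interaction gave 0 to 1 without single libraries.

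With the replicate number as a block, the count for H3K27ac in Npm1c was 3 in place of 5 (Fos, Fosb and Atf3), in DM 3 in place of 4 and in neutrophils 2 in place of 3, both without Jun. Deviations of same-numbered libraries correlated at -0.126 to 0.278 for H3K27ac, -0.119 to 0.071 for H3K4me1 and -0.231 to 0.103 for H3K4me3, over 10 pairs of groups each. The libraries share only a number, and the pairing says nothing of the mice.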

Other observations

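Past the Batf3 window, H3K4me3 split the groups. A region 16.19 to 17.70 kb after the Batf3 start held a peak in both libraries of Flt3-ITD, DM and neutrophils and in none of the 4 WT and Npm1c libraries, 6 of 10 in all. It lies beyond the 5 kb taken for this mark and in no comparison, and was noticed after the peaks were plotted. Inside the 10 kb taken for H3K27ac, DM replicate 1 alone held an acetylated peak there, of 574 bp. At the other members with an annotated start, H3K4me3 regions between 5 and 10 kb from the span were present in 10 of 10 libraries, except one at Fosb in Flt3-ITD replicate 1 alone.

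Of 19 other bZIP partners tested for H3K27ac, 2 rose in Npm1c, 0 changed in Flt3-ITD, 1 rose and 1 fell in DM, and 3 rose and 2 fell in neutrophils. Over all genes 17.7% rose in Npm1c, 6.94% rose and 6.04% fell in DM, and 13.2% rose and 23.2% fell in neutrophils. Bach2, a repressor best known from B cells, covered 2.83 ± 0.209 kb in WT, 12.7 ± 5.81 kb in DM and 0.340 ± 0.0679 kb in neutrophils (SD, n = 2), with log2 changes of 1.92 and -1.99 (limma adjusted p = 0.0152 and 0.00445). Bach1, a haem-regulated repressor, fell from 3.94 ± 0.0559 kb to 1.82 ± 0.377 kb in DM (adjusted p = 0.0324). Nfe2, a factor of erythroid cells and megakaryocytes, covered 6.71 ± 0.199 kb in WT, 13.0 ± 0.766 kb in Npm1c and 4.05 ± 0.903 kb in DM, and DM differed from Npm1c (log2 change -1.58, adjusted p = 0.00168). Summed erythroid markers were also lowest in DM among the HSPC groups, at 4.76 and 3.11 kb, and their part in the Nfe2 values was not tested. Jdp2 and Nfil3, both bZIP repressors, rose in neutrophils, from 1.72 ± 0.460 to 5.79 ± 0.793 kb and from 1.87 ± 0.0580 to 5.30 ± 0.474 kb (adjusted p = 0.00314 and 0.0219).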
